A study of Papio anubis with 588 samples.

Results

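The HOX genes of the 4 HOX clusters were described in liver, muscle and adipose tissue of the olive baboon (Papio anubis), a monkey of African savannas. Members were chosen by symbol alone: HOX, a cluster letter from A to D and a paralog number. This gave 39 of the 34178 genes in the count table, 11 in HOXA, 10 in HOXB, 9 in HOXC and 9 in HOXD. The rule itself uses no measured value, but it was set with earlier results of these data known.

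HOX genes encode homeodomain transcription factors that give cells along the head-to-tail axis of the embryo their positional identity. Genes with low paralog numbers are switched on early and toward the head, and genes with high numbers later and toward the tail, in the order in which they lie along each cluster. In adult animals, connective tissue, fat and muscle cells keep much of this positional expression, and Polycomb and trithorax proteins maintain it.

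The data were RNA-sequencing counts from 99 captive baboons. Biopsies were taken on a low cholesterol, low fat diet (LCLF) at 0yr and on a high cholesterol, high fat diet (HCHF) at 2yr. The labels used here give no allele, agent beside the diet, age, muscle or fat depot for any group. Animals that stayed on LCLF were not analysed here, so diet, age and time cannot be told apart.

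After the authors' quality control 570 of 588 libraries were kept, namely from LCLF 95 liver, 96 muscle and 99 adipose libraries, and from HCHF 87, 98 and 95. Libraries were unstranded and single-end for 16 animals (batch 1) and stranded and paired-end for 83 (batch 2), with both times of an animal in the same batch. Total counts ranged from 6.51 M to 38.5 M per library, with a median of 19.5 M. Levels are in counts-per-million (CPM). The sum of 6 hepatocyte genes was between 31800 and 331000 CPM in liver, and at most 30800 in muscle and 789 in adipose tissue. That of 6 myocyte genes was between 79800 and 361000 in muscle, and at most 5440 in liver and 5710 in adipose tissue. That of 6 adipocyte genes overlapped between tissues: it was between 138 and 10600 in adipose tissue, with medians of 3730 at 0yr and 3990 at 2yr, and at most 918 in muscle, with medians of 351 and 380, and 1290 in liver. In 12 kept libraries, markers of another sampled tissue summed to over 1000 CPM. Below, levels are CPM scaled by TMM (a correction for differences in library composition), given as lowest, median and highest library. They compare tissues within a gene, not genes with each other, since lengths were not used. In bulk tissue, fewer cells of a type and less RNA per cell cannot be told apart.

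The 3 tissues carried different HOX codes at 0yr. Adipose tissue had the highest median of the 3 tissues for 20 members, among them HOXA2 to HOXA6 and HOXB2 to HOXB9. Muscle had the highest median for 13 members, among them HOXA7 to HOXA13 and HOXC8 to HOXC12. Liver had the highest median for 0 members. With scaling by library totals the split was 23 for adipose tissue and 10 for muscle. Enough counts for a test of the diet were present for 8 members of liver, 28 of muscle and 27 of adipose tissue, and for 32 in at least 1 of them.

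**Figure D1:**
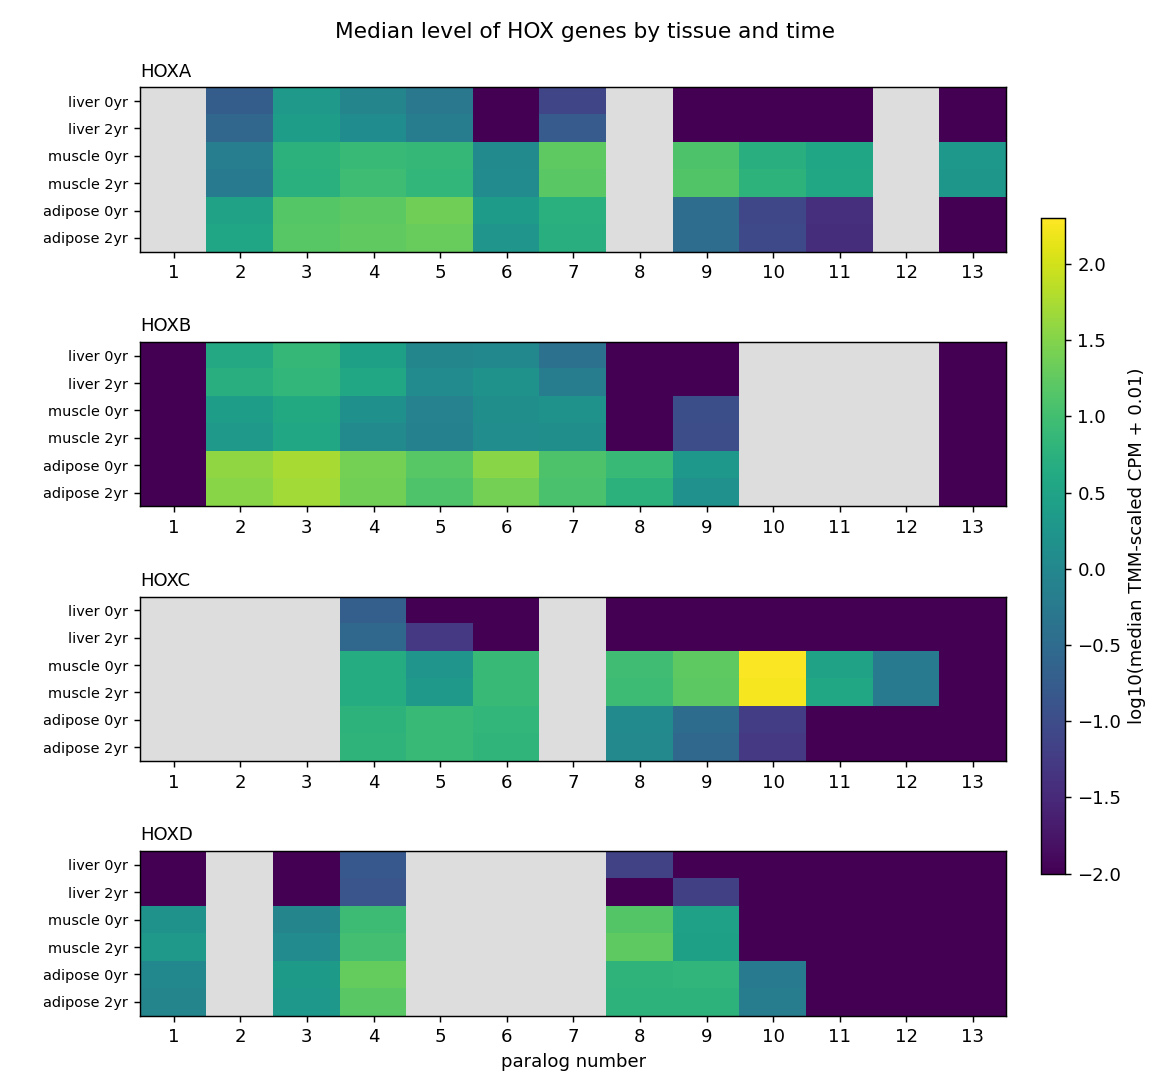
Median level of HOX genes (colour, log10 of TMM-scaled CPM + 0.01) by paralog number (columns) in each tissue and at each time (rows), for the HOXA, HOXB, HOXC and HOXD clusters. Grey marks paralog numbers with no value shown. HOXB2 to HOXB9 are brightest in adipose tissue, and HOXA9 to HOXA13 and HOXC8 to HOXC12 in muscle. Liver has its brightest values at HOXB2 to HOXB4 and HOXA3, and is dark at high paralog numbers and in HOXC and HOXD.

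The HOXB cluster was mainly expressed in adipose tissue. HOXB3, whose product acts in the hindbrain and neck region of the embryo, was at 34.2, 54.3 and 111 CPM in adipose tissue, at 3.9, 7.33 and 16.3 in liver and at 1.4, 4.11 and 21.2 in muscle. HOXB6, a trunk-level member, was at 19.9, 34.5 and 83.5 CPM in adipose tissue, at 0.244, 1.01 and 2.85 in liver and at 0.295, 1.37 and 5.43 in muscle. For both genes the lowest adipose library lay above the highest library of the other tissues.

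HOXB8, a gene of the lower trunk, was at 2.76, 8.31 and 23.4 CPM in adipose tissue, and had 0 counts in 86 of 95 liver and 55 of 96 muscle libraries, whose highest values were 0.244 and 0.44 CPM. HOXB9, its neighbour, was at 0.159, 1.99 and 10.1 CPM in adipose tissue and at 0 counts in 69 liver and 32 muscle libraries. Adipose tissue was above muscle in 96 of 96 animals for each of HOXB2 to HOXB8 and in 95 of 96 for HOXB9. The log2 difference between adipose tissue and muscle was 4.55 (SE 0.09) for HOXB6, and lay between 3.04 for HOXB7 and 4.55 over HOXB2 to HOXB7.

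In liver 5 of the 8 members with enough counts were HOXB genes, HOXB2 to HOXB6. HOXB2 had a median of 3.87 CPM in liver against 2.43 in muscle, and HOXB4 2.79 against 1.42. Liver was higher than muscle in 72 of 92 animals for HOXB2 and in 76 of 92 for HOXB3 and HOXB4. The order turned with paralog number: the liver minus muscle log2 difference was 0.83 for HOXB4, 0.02 for HOXB5, -0.62 for HOXB6 and -1.87 for HOXB7. HOXB5 did not pass the test, with medians of 0.939 CPM in liver and 0.808 in muscle.

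The HOXA cluster changed tissue between its low and its high numbers. HOXA5, a regulator of lung and trunk patterning, was at 13.1, 23.5 and 37.7 CPM in adipose tissue, at 2.6, 7.18 and 16.3 in muscle and at 0, 0.52 and 2.28 in liver. HOXA7 had the opposite order of the first 2 tissues, with 5.85, 17.3 and 33.9 CPM in muscle and 2.44, 5.41 and 12.9 in adipose tissue. HOXA7 was higher in muscle in 95 of 96 animals. The adipose minus muscle log2 difference was 1.66 for HOXA5, 1.02 for HOXA6, -1.63 for HOXA7 and -4.92 for HOXA9. With scaling by library totals it was -0.2 for HOXA7 and -3.46 for HOXA9.

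The HOXA genes with the highest numbers were muscle genes. HOXA10, known from limb and urogenital patterning, was at 0.585, 5.22 and 9.16 CPM in muscle, with a median of 0.0717 in adipose tissue and 0 counts in 91 of 95 liver libraries. HOXA11, a limb-segment gene, was at 0, 3.55 and 6.54 CPM in muscle, with medians of 0.0288 in adipose tissue and 0 in liver. HOXA13, which patterns the end of the limb and the hindgut, was at 0, 1.94 and 5.32 CPM in muscle and had 0 counts in 86 of 99 adipose and 95 of 95 liver libraries. The range of HOXA11 in adipose tissue reached 14.5 CPM and overlapped that of muscle.

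The HOXC cluster showed the widest gap between tissues at HOXC10, which patterns the lumbar and hindlimb level. HOXC10 was at 68, 186 and 333 CPM in muscle, at 0, 0.0504 and 4.04 in adipose tissue and at 0, 0 and 3.95 in liver. The adipose library at 4.04 CPM held 5710 CPM of myocyte markers, and the liver library at 3.95 held 5440. HOXC9 was at 9.3, 16.9 and 33.1 CPM in muscle against a highest value of 0.966 in adipose tissue, and HOXC11 was at 0 counts in 97 of 99 adipose and 94 of 95 liver libraries. HOXC8, HOXC9, HOXC10 and HOXC11 were higher in muscle than in adipose tissue in 96 of 96 animals.

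HOXC5 and HOXC6 had another pattern. HOXC5 was at 3.92, 7.76 and 12 CPM in adipose tissue and at 0.317, 1.74 and 3.98 in muscle. HOXC6, a thoracic-level gene, was at 4.36, 7 and 12 CPM in adipose tissue and at 3.8, 7.76 and 12.2 in muscle, and its log2 difference of -0.11 did not pass the test. With scaling by library totals that difference was 1.31. Both genes lay near 0 in liver, where their medians were 0.

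In the HOXD cluster, muscle and adipose tissue overlapped. HOXD4 was at 9.63, 19.2 and 57 CPM in adipose tissue and at 3.14, 8.91 and 41.4 in muscle. HOXD8 was at 3.77, 14.2 and 95.2 CPM in muscle and at 3.23, 6.14 and 33.2 in adipose tissue. HOXD9 was at 2.28, 6.69 and 32.3 CPM in adipose tissue and at 0.415, 2.91 and 21.1 in muscle. HOXD1 was at 0.23, 1.6 and 42.3 CPM in muscle and at 0.206, 1 and 4.19 in adipose tissue, and HOXD3 had medians of 0.903 and 2.23 CPM. HOXD10 reached a median of 0.615 CPM in adipose tissue and was at 0 counts in 83 of 96 muscle and 88 of 95 liver libraries.

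**Figure D2:**
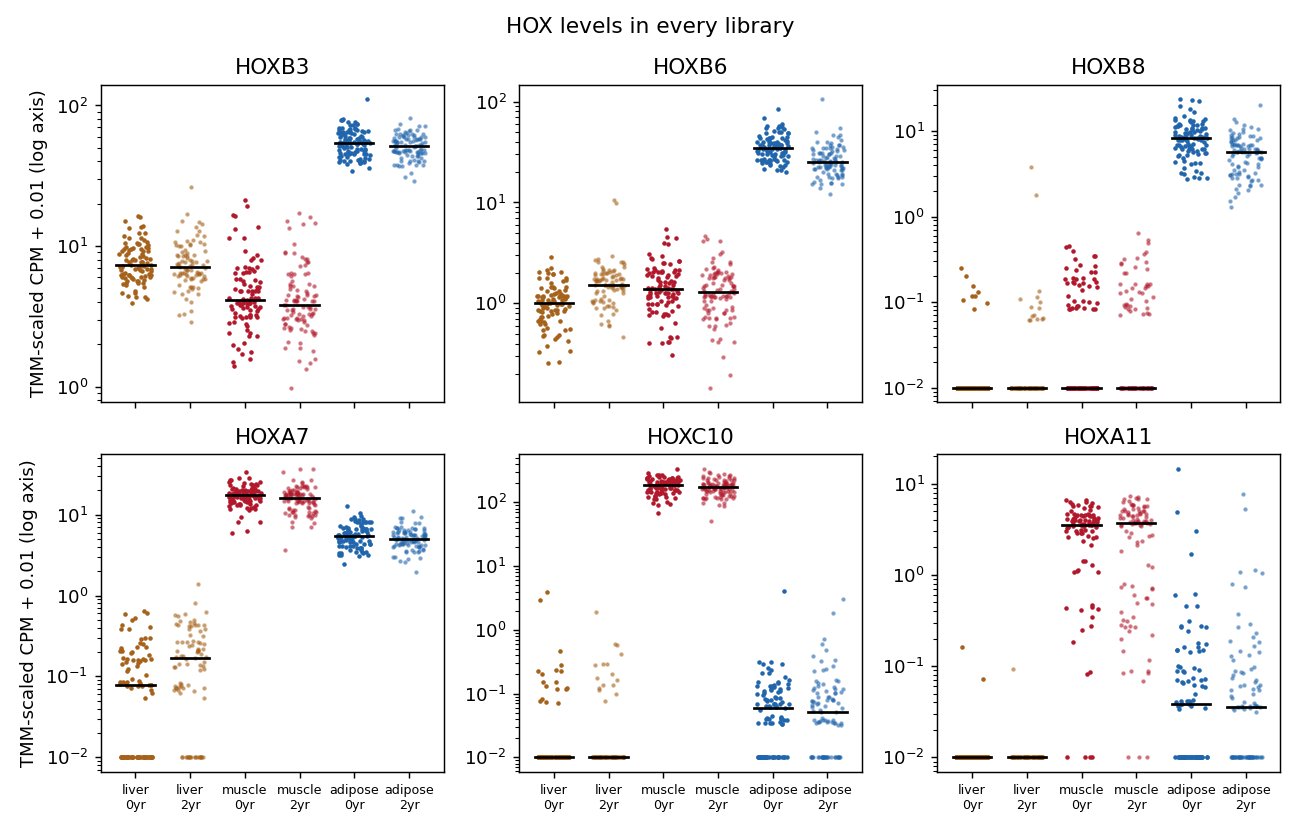
Level of 6 HOX genes (TMM-scaled CPM + 0.01, log axis) in every library of each tissue at 0yr and 2yr, with black lines at the medians. At 0yr HOXB8 is at 2.76 CPM or above in adipose tissue and HOXC10 at 68 or above in muscle, and at 2yr at 1.29 and 50.8 or above. HOXA11 in muscle runs from 0 to 6.54 CPM at 0yr and to 7.35 at 2yr.

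Another 7 members were too low for a test of the diet in any tissue, namely HOXB1, HOXB13, HOXC12, HOXC13, HOXD11, HOXD12 and HOXD13. HOXD12 and HOXD13 had 0 counts in every kept library. HOXC12 had a median of 0.569 CPM in muscle at 0yr, and HOXD11 reached 6.15 CPM in 1 adipose library.

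Differences between tissues were tested over 17177 genes at 0yr with edgeR (quasi-likelihood), blocking on the animal. Of 32 members tested, 30 passed between liver and muscle, 30 between liver and adipose tissue, and 31 between adipose tissue and muscle. Of all genes tested, 92.9%, 91.6% and 93.6% passed, so these counts say nothing particular about HOX genes. Tissue ranges did not overlap for 12, 20 and 11 members, against 17.1%, 14.2% and 12.3% of all genes tested. A member counted in the test through the tissue where it is high had to differ, so neither count is support. The median log2 difference of the members was -5.03 for liver minus muscle, -4.8 for liver minus adipose tissue and 1.04 for adipose tissue minus muscle, against 0.0263, -0.0756 and 0.275 over all genes tested.

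Scaling bears on comparisons with adipose tissue. Library totals in place of TMM shifted the median of all genes by 1.47 for adipose tissue minus muscle, by -1.31 for liver minus adipose tissue and by 0.153 for liver minus muscle. Under library totals HOXC6, HOXD1 and HOXD8 changed sign between adipose tissue and muscle, HOXD8 from -1.31 to 0.12 and HOXD1 from -0.86 to 0.51. HOXA9 to HOXA13 and HOXC8 to HOXC11 stayed higher in muscle, with HOXC8 at -1.69 and HOXA13 at -4.63. HOXA7 kept its sign but went from -1.63 to -0.2.

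At 2yr the order of the 3 tissues by median, with ties at 0 not counted as a change, was the same as at 0yr for 31 of the 32 members, and HOXB6 was the exception. Over 17447 genes at 2yr, 30, 30 and 31 of 31 members passed in the same 3 comparisons, against 92.5%, 89.6% and 93.2% of all genes. HOXA13 was not among the members tested between tissues at 2yr. It had 0 counts in 21 of 98 muscle libraries at 2yr, against 8 of 96 at 0yr. HOXC10 had medians of 172 CPM in muscle, 0.0412 in adipose tissue and 0 in liver. HOXB3 had medians of 51.5 CPM in adipose tissue, 7.08 in liver and 3.77 in muscle. HOXB6 in liver rose from a median of 1.01 to 1.53 CPM while muscle had 1.37 and 1.28, and its liver minus muscle log2 difference went from -0.62 to 0.23 (adjusted p = 0.0203, edgeR). HOXB5, which had not passed at 0yr, was higher in liver than in muscle by 0.58 at 2yr, in 63 of 86 animals. HOXC6 had an adipose minus muscle log2 difference of -0.26 at 2yr, which passed, and of 1.12 with library totals.

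On average over animals, the log2 fold of tested members lay between -0.63 in adipose tissue and 0.69 in muscle. Single animals could move further: HOXA9 in adipose tissue of animal 14016 was at 0.75 CPM at 0yr and 8.01 at 2yr. In liver 6 of 8 tested members rose and 0 fell, where 22.3% of 14919 genes rose and 27.1% fell. All 8 values were above 0, and 0 members fell at an unadjusted p under 0.05 without the animal block, by edgeR or DESeq2. HOXB6 rose by 0.68 on the log2 scale (SE 0.1, adjusted p = 3.76e-09, edgeR), in 65 of 84 animals. HOXA4 rose by 0.44, HOXB5 by 0.43, HOXB4 by 0.41, HOXA5 by 0.4 and HOXB2 by 0.3. HOXA3 and HOXB3 did not pass, with values of 0.14 and 0.01. The median over the 8 members was 0.41, against -0.03 over all genes tested.

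The batches differed in what passed. In the 71 animals of batch 2, 5 of 7 tested members rose, HOXB6 by 0.81, and HOXA5 was not tested. In the 13 animals of batch 1, 0 of 7 tested members passed by edgeR, 0 at an unadjusted p under 0.05, and HOXB6 was at 0.26 and HOXB5 at -0.07. HOXB4 and HOXB2 were at 0.38 and 0.29 in batch 1 and rose by 0.42 and 0.31 in batch 2. Markers of several other liver cells also rose, namely 9 of 9 endothelial, 8 of 8 fibroblast and 6 of 6 macrophage markers. So did 5 of 5 smooth muscle and pericyte and 5 of 5 lymphocyte markers, while 4 of 6 hepatocyte markers fell. Bile duct cells were an exception, since 0 of their 4 tested markers passed in either direction. For Schwann cells 1 of 2 rose. The summed macrophage markers went from a median of 116 to 317 CPM and the endothelial ones from 144 to 233. Their part in the HOX change was not tested.

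In adipose tissue 12 of 27 tested members fell and 4 rose, where 19.9% of 16827 genes fell and 18.7% rose. The falls covered every member from HOXB2 to HOXB8. HOXB8 had a median of 8.31 CPM at 0yr and 5.7 at 2yr and fell by 0.63 on the log2 scale (SE 0.1, adjusted p = 1.69e-07, edgeR), in 70 of 95 animals. HOXB6 had medians of 34.5 and 25.2 CPM and fell by 0.45 (SE 0.05, adjusted p = 1.57e-10, edgeR), in 79 of 95 animals. The ranges at both times overlapped for both genes.

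The HOXA cluster of adipose tissue split by paralog number. HOXA2, HOXA3 and HOXA4 rose by 0.23, 0.09 and 0.1 on the log2 scale. HOXA5 fell by 0.26, HOXA6 by 0.54 and HOXA7 by 0.12. HOXC4 rose by 0.15, HOXC8 fell by 0.18 and HOXD4 fell by 0.24, and HOXD4 was lower in 70 of 95 animals. HOXA3, HOXA4 and HOXA5 overlap one another in the RefSeq annotation of Panubis1.0, as do HOXA5 with HOXA6, HOXC4 with HOXC5, and HOXC6 with HOXC8, so how the authors' counting split their reads is uncertain.

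Several of the smaller adipose changes depended on the animal block. Without it 7 members fell (HOXA5, HOXA6, HOXB4, HOXB5, HOXB6, HOXB8 and HOXD4) and 2 rose (HOXA2 and HOXC4). In batch 2 alone, 10 fell and 2 rose. Without the libraries that held markers of another tissue, HOXA3 (adjusted p = 0.0656, edgeR) and HOXA7 (adjusted p = 0.0537, edgeR) did not pass, and HOXD3 did. In the 16 animals of batch 1, 0 of 25 members passed by edgeR in either direction, with 7 lower and 1 higher at an unadjusted p under 0.05, and HOXB8 was at -0.54 and HOXB6 at -0.37. In adipose tissue 8 of 8 fibroblast, 4 of 4 mesothelium and 6 of 6 macrophage markers rose and 5 of 9 endothelial markers fell, and their part was not tested.

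**Figure D3:**
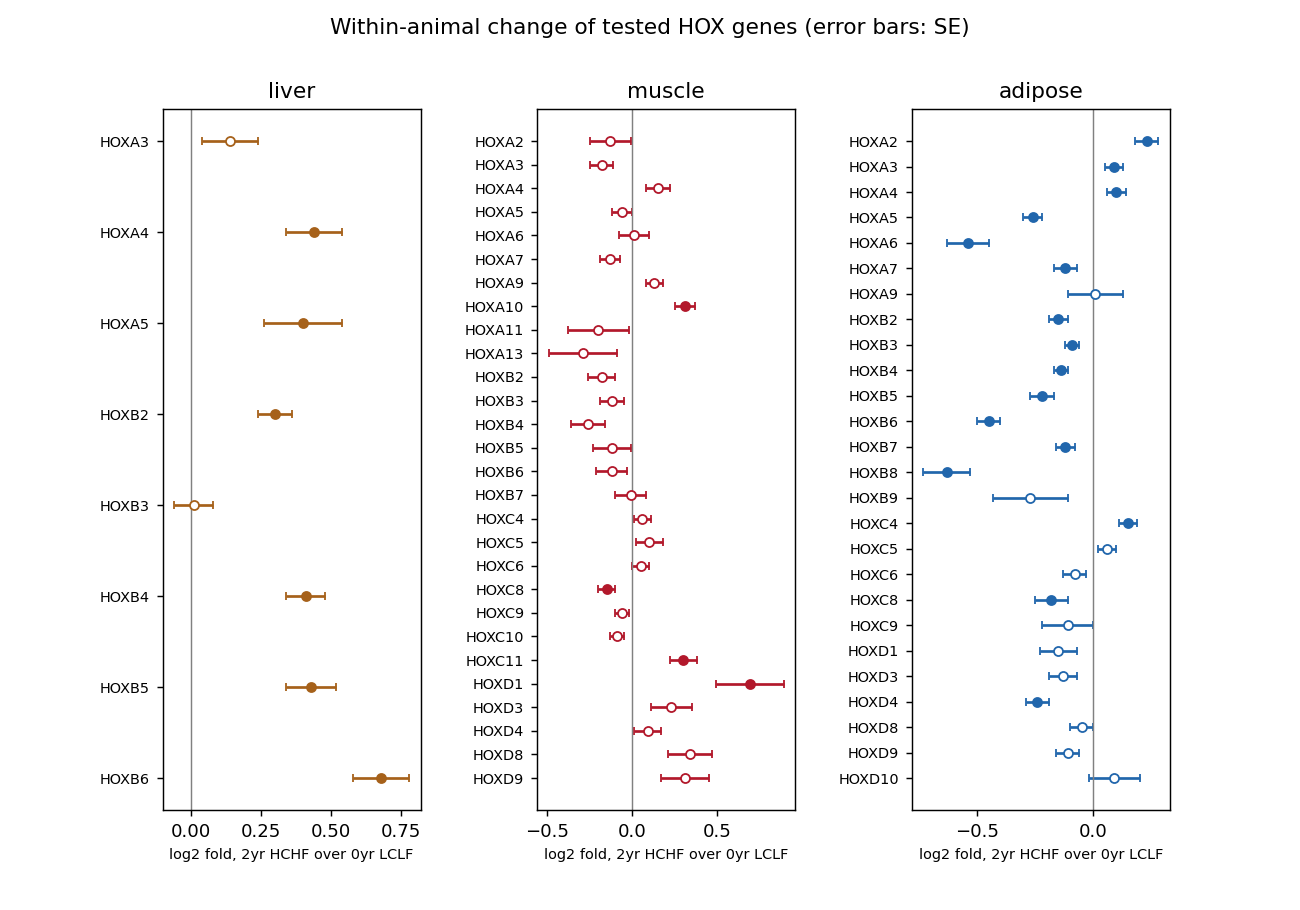
Log2 fold of 2yr HCHF over 0yr LCLF (points, error bars SE) for tested HOX genes in liver, muscle and adipose tissue, with filled points for an adjusted p under 0.05. In liver 6 of 8 points lie right of 0 and are filled, and in adipose tissue HOXB2 to HOXB8 lie left of it.

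In muscle 3 of 28 tested members rose and 1 fell, where 6.7% of 13621 genes rose and 7.91% fell. HOXA10 rose by 0.31 on the log2 scale (SE 0.06, adjusted p = 0.000174, edgeR), in 66 of 95 animals, and HOXC11 by 0.3 in 65 of 95. HOXD1 rose by 0.69 (SE 0.2) in 56 of 95 animals. HOXC8 fell by 0.15 (SE 0.05, adjusted p = 0.0389, edgeR), a call kept with RLE size factors and lost under the other 11 alternatives, and HOXC10 was at -0.09 without passing. Without the animal block, HOXA10, HOXC11, HOXD1, HOXD8 and HOXD9 rose and 0 fell, by edgeR and by DESeq2, with 0 lower at an unadjusted p under 0.05 by either. In the 16 animals of batch 1, 0 of 20 members passed by edgeR, with 5 higher and 1 lower at an unadjusted p under 0.05. Beside these values, 4 of 8 fibroblast and 4 of 5 macrophage markers rose in muscle, 7 of 9 endothelial and 3 of 6 myocyte markers fell, and their part was not tested.

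Some muscle libraries stood apart from the rest. In 25 of 194, SIM1, a transcription factor gene, was between 1.74 and 13.9 CPM, and in the other 169 it was at most 0.98. These 25 libraries came from 25 different animals, 4 at 0yr and 21 at 2yr, and 5 were of batch 1. Of the 95 animals with both times, 4 had SIM1 above 1.5 CPM at 0yr only, 20 at 2yr only and 0 at both times.

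The HOX genes of the 25 libraries differed in range from the others. HOXD8 lay between 28.5 and 97 CPM in them and between 3 and 43.5 in the other 169. HOXA11 was at most 0.727 CPM and HOXA13 at most 0.231 in the 25, against highest values of 7.35 and 5.65 in the others. PITX1, a hindlimb transcription factor, lay between 51.2 and 147 CPM against 1.14 to 47.4, and PAX3, a regulator of muscle precursors, was at most 0.538 against 0.985 to 14.8. Myocyte markers summed to between 79800 and 251000 CPM in them and to between 86000 and 361000 in the other muscle libraries.

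Another 21 muscle libraries, of 14 animals, had HOXA11 under 1 CPM with low SIM1. In these HOXD8 lay between 5.01 and 20 CPM, HOXD4 between 12 and 41.4, and TBX15, a T-box transcription factor, between 105 and 354. They were 11 libraries at 0yr and 10 at 2yr, and 0 were of batch 1. Over both sets, HOXA11 was under 1 CPM at both times in 9 of 95 animals, at 0yr only in 6 and at 2yr only in 21.

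Without the 25 libraries, 71 animals remained, and 2 members rose in muscle, HOXA10 by 0.27 and HOXC11 by 0.27, while 0 fell by edgeR, with 2 lower at an unadjusted p under 0.05. HOXD1 was then at 0.2 (adjusted p = 0.258, edgeR), HOXD8 at 0.02 and HOXD9 at -0.06. These libraries were found from the data and are no group of the study.

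**Figure D4:**
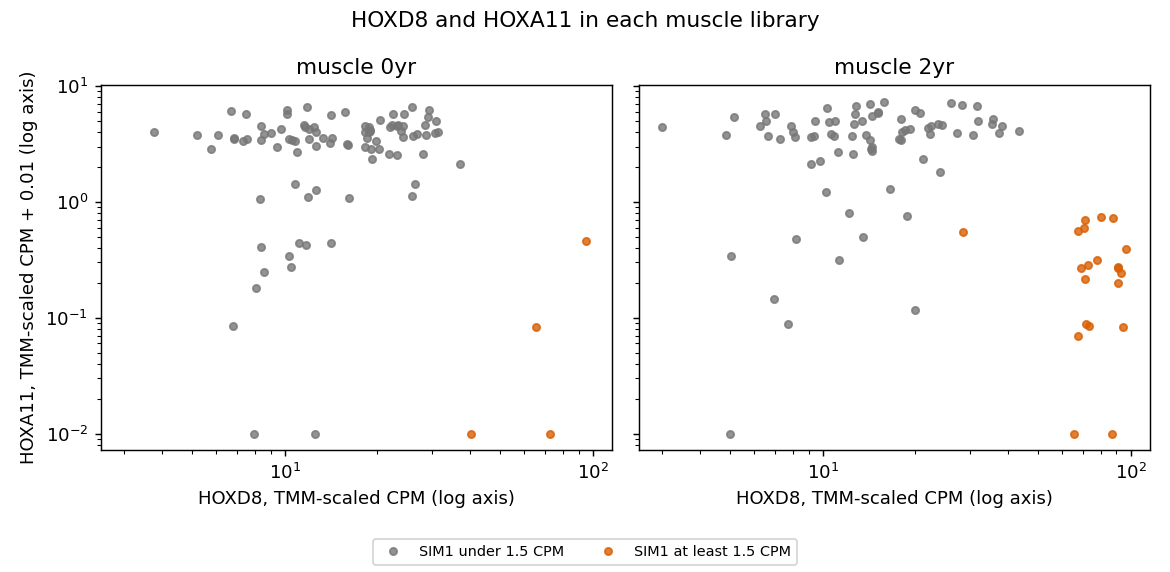
HOXD8 against HOXA11 (TMM-scaled CPM, log axes, 0.01 added to HOXA11) in each muscle library at 0yr and at 2yr, with libraries of SIM1 at 1.5 CPM or above in orange. The orange libraries, 4 at 0yr and 21 at 2yr, lie at HOXD8 of 28.5 CPM or more and HOXA11 of 0.727 or less.

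Adipose tissue had a few libraries with high HOXA11. In 9 of 194 libraries, from 7 animals, HOXA11 was over 1 CPM, at most 14.5. Animal 14852 had 4.9 CPM at 0yr and 7.77 at 2yr, and animal 15581 had 3 and 1.11. The highest, animal 14944 at 0yr, also had HOXA9 at 7.55, HOXA10 at 9.99 and HOXD10 at 11.1 CPM. Of 95 animals with both times, 2 were above 1 CPM at both.

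Whether the tissue difference itself changed from 0yr to 2yr was tested by limma on the difference of within-animal changes. For liver minus adipose tissue 11 of 27 members passed, all toward liver, where 34.7% of all genes passed. HOXB6 moved by 1.08 (SE 0.1, adjusted p = 7.98e-15, limma), in 73 of 82 animals, from a rise of 0.62 in liver and a change of -0.45 in adipose tissue. HOXB7 moved by 0.7, HOXB8 by 0.68 and HOXA6 by 0.67. For HOXB8 and HOXA6, which had medians of 0 in liver, the change was 0.04 and 0.06 in liver and -0.64 and -0.61 in adipose tissue.

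For liver minus muscle 12 of 30 members passed, where 31.4% of all genes passed. HOXB6 moved by 0.71 in 58 of 80 animals, HOXB4 by 0.64 in 59 of 80 and HOXA7 by 0.53 in 56 of 80, all toward liver, and HOXD8 by -0.57. HOXA7 and HOXD8 were too low in liver for a test of the diet there. HOXA7 had liver medians of 0.0691 CPM at 0yr and 0.161 at 2yr, with 0 counts in 39 of 95 and 18 of 87 libraries. For adipose tissue minus muscle 8 of 32 members passed, where 10.8% of all genes passed, with HOXD1 at -0.66, HOXB8 at -0.58, HOXA6 at -0.57 and HOXA2 at 0.4. Without the muscle libraries high in SIM1, 3 of these members passed, and HOXD1 was at -0.25 and HOXD8, for liver minus muscle, at -0.26, where HOXA3, HOXA4 and HOXC11 did not pass either and HOXA11, HOXC4 and HOXC6 newly passed. Without the libraries that held markers of another tissue, 9 members passed in each of the 3 comparisons. HOXA3, HOXA4, HOXA5 and HOXB5 then did not pass for liver minus muscle, HOXA4 and HOXD3 for liver minus adipose tissue, and HOXA2 for adipose tissue minus muscle. These 3 comparisons share libraries.

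Animals differed more in some members than in others. Over batch 2 at 0yr, the median SD of log2 CPM between animals was 0.614 for the 8 liver members, 0.755 for the 28 of muscle and 0.421 for the 27 of adipose tissue. Over all genes tested it was 0.422, 0.513 and 0.402. Over both batches at 0yr, with batch in the model, dispersion was also set against what edgeR's trend gives at a gene's count level. The median of this ratio was 0.537 for members and 0.571 for all genes in liver. It was 0.772 and 0.677 in muscle, and 0.552 and 0.524 in adipose tissue. The ratio was over 1 for 12.5%, 35.7% and 29.6% of members, against 25.4%, 31.5% and 26.8% of all genes. On that scale the median of the liver members was near that of all genes, where their median SD was higher. Single liver members ran from 0.332 for HOXB6 to 1.165 for HOXA3.

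In muscle the widest members were HOXA13 with an SD of 1.76, HOXA11 with 1.66 and HOXD1 with 1.34, genes whose range differed in the libraries that stood apart. The narrowest were HOXC6 with 0.293 and HOXC9 with 0.349. In adipose tissue HOXB9 with 1.09, HOXA9 with 1 and HOXD10 with 0.969 were widest, and HOXB4 with 0.226 and HOXA5 with 0.293 narrowest. In liver HOXA5 with 0.909, HOXA3 with 0.894 and HOXA4 with 0.719 were widest, and HOXB2 with 0.458 and HOXB3 with 0.46 narrowest.

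The levels of many members were repeatable within animals. Repeatability was the correlation between an animal's 0yr and 2yr levels within batch 2, with a permutation test of 100000 draws (two-sided) adjusted over all genes tested. A positive correlation passed for 5 of 8 liver, 24 of 28 muscle and 19 of 27 adipose members, against 82.8%, 90.4% and 84.0% of all genes. The median r of the members was 0.267, 0.379 and 0.336, against 0.394, 0.486 and 0.4.

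In muscle HOXC8 had r = 0.683 and rho = 0.715 over 79 animals (permutation test, adjusted p = 2.06e-05, from the smallest p that these draws can give), and r = 0.653 without the 2 animals farthest from the median. HOXB3 had r = 0.663, HOXA10 0.66 and HOXC10 0.601. In 1 setting, scores of the cell type markers were removed, except those of myocytes in muscle, hepatocytes in liver and adipocytes in adipose tissue. With these marker scores removed, HOXB3 was at 0.153 (permutation test, adjusted p = 0.207) and HOXA10 at 0.206 (permutation test, adjusted p = 0.0894). Neither passed, while HOXC8 at 0.332 and HOXC10 at 0.527 did. HOXC11 and HOXC6 were lowest, with r = 0.15 and 0.164, and did not pass. Without the muscle libraries high in SIM1, 60 animals remained, 25 of 28 members passed, where 89.2% of all genes did, and the median r was 0.522 for members and 0.518 for all genes. HOXD8 then had r = 0.789 in place of 0.3, and HOXA11 0.757 in place of 0.349. With marker scores removed over all 79 animals, SIM1-high libraries kept, HOXD8 was at 0.206 and HOXA11 at 0.0729, and neither passed. Marker removal without the SIM1-high libraries was not tested.

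In adipose tissue HOXA6 had r = 0.616 and rho = 0.446, HOXD9 r = 0.593, HOXB2 r = 0.566 and HOXA9 r = 0.526. The value of HOXA9 was 0.352 without the 2 farthest animals and 0.329 with marker scores removed. HOXB9 and HOXC9 were lowest, with r = 0.0843 and 0.0138. In liver HOXB2 had r = 0.456, HOXA3 0.4, HOXB5 0.337, HOXB3 0.279 and HOXA5 0.255, and HOXA4, HOXB4 and HOXB6 did not pass, with 0.215, 0.197 and 0.149. With marker scores removed HOXB2 was at 0.237 and HOXB3 at 0.15 and neither passed, while HOXA4 passed at 0.321. HOXB3 did not pass without the libraries that held markers of another tissue either, at 0.196. With marker scores removed, 4, 12 and 15 members passed in liver, muscle and adipose tissue, or 50.0%, 42.9% and 55.6% of them, against 69.3%, 70.8% and 77.4% of all genes.

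In batch 1, with 13, 16 and 16 animals, 0 members passed in any of the 3 tissues by the permutation test, where 9.16%, 7.35% and 4.28% of all genes did. At an unadjusted p under 0.05, 0, 2 and 4 members were positive.

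**Figure D5:**
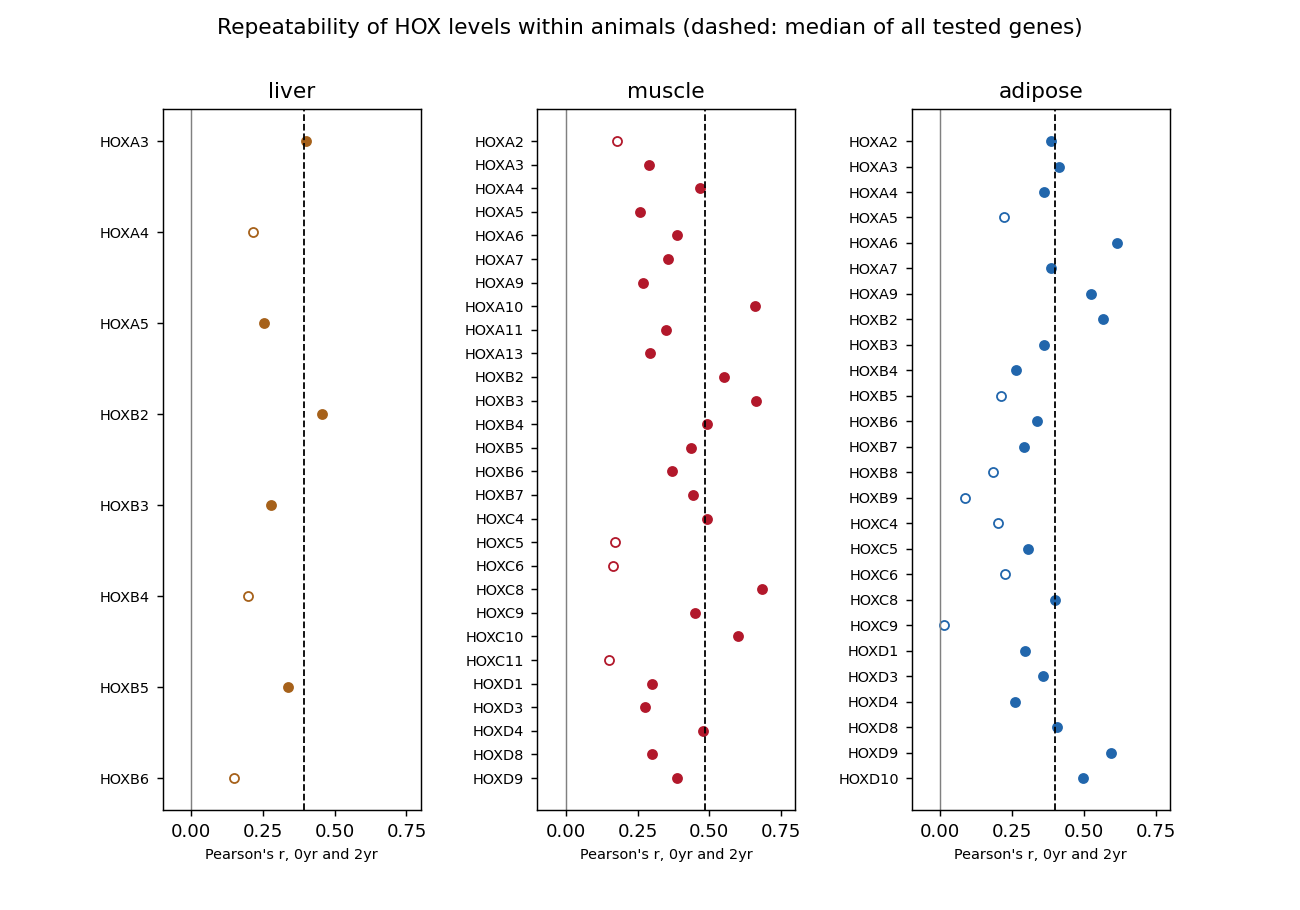
Pearson's r between an animal's 0yr and 2yr levels for tested HOX genes, by tissue, in batch 2, with filled points for an adjusted p under 0.05 and a dashed line at the median of all genes tested. Most HOX genes lie left of the dashed lines at 0.394 (liver), 0.486 (muscle) and 0.4 (adipose tissue), and HOXC8, HOXB3, HOXA10 and HOXC10 in muscle lie right of it.

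Pairs of members of the same cluster had higher median correlations across animals than pairs that shared neither cluster nor number, as a description over batch 2 at 0yr. In muscle, over 80 animals that share library type, the median pairwise r was 0.188 for 91 pairs of the same cluster, 0.217 for 23 pairs of the same paralog number and 0.0703 for 264 other pairs. Neighbouring numbers of a cluster had a median of 0.543 over 19 pairs. HOXD8 with HOXD9 had r = 0.922 and HOXA11 with HOXA13 0.895, and HOXA13 with HOXD4 had -0.799. The muscle libraries that stood apart were kept in these values. In adipose tissue the medians were 0.313, 0.179 and 0.0871, with 0.382 for neighbouring numbers of a cluster, and HOXB6 with HOXB8 had 0.768. In liver the 13 pairs of a cluster had a median of 0.303, the 6 of neighbouring numbers 0.305, and HOXB2 with HOXB3 had 0.571.

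Other genes of the pathway were taken from fixed lists, set with earlier results of these data known, and tested by edgeR with the members. Of the 9 HOX cofactors (PBX, MEIS and PKNOX), which bind DNA with HOX proteins, 8 were tested. In liver 5 rose and PKNOX1 fell, where 22.3% of all genes rose and 27.1% fell. The list median was 0.19 against -0.03 over all genes. PBX3 rose in liver by 0.54 and MEIS2 by 0.23. MEIS1 rose in muscle by 0.21, and MEIS1 and MEIS2 rose in adipose tissue by 0.13 and 0.16. MEIS1 had a median of 47 CPM in adipose tissue, 3.8 in muscle and 3.03 in liver at 0yr, and MEIS2 28.6, 0.627 and 17.2.

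Of 22 Polycomb genes, which keep HOX genes silent, 21 were tested. In liver 8 rose, among them PCGF2 by 0.4 and PHF19 by 0.37, and MTF2 fell, with a list median of 0.04. Of all genes 22.3% rose and 27.1% fell there. In adipose tissue 6 fell, among them PHF1 by 0.19 and EZH1 by 0.16, and 2 rose, with a list median of -0.02. Of all genes 19.9% fell and 18.7% rose there. In muscle EZH1, PHF1 and PCGF2 fell, where 7.91% of all genes fell.

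Of the 11 trithorax genes, which keep HOX genes active, 6 fell in liver, among them KMT2D by 0.19, with a list median of -0.1. In adipose tissue 6 fell, among them KMT2B by 0.15, with a list median of -0.06. Of all genes 27.1% fell in liver and 19.9% in adipose tissue. In muscle ASH2L rose by 0.06, where 6.7% of all genes rose. These changes were small beside those of HOXB6 in liver and HOXB8 in adipose tissue, the largest of the members there. Other members changed by similar amounts, such as HOXB2 at -0.15 and HOXB4 at -0.14 in adipose tissue.

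Retinoic acid acts upstream of HOX clusters in the embryo. Of 17 genes of its pathway, 10 were tested in liver, where RARA, RARB and RARG, its receptors, rose by 0.18, 0.2 and 0.24, and ALDH1A1 was among the 2 that fell. Of all genes 22.3% rose and 27.1% fell in liver. Of 13 tested in adipose tissue 4 rose and 2 fell, where 18.7% of all genes rose and 19.9% fell. CRABP2, a retinoic acid carrier, rose there by 1.4 from a median of 0.722 to 2.34 CPM, and ALDH1A3, which makes retinoic acid, rose by 0.47. In muscle 0 of 11 passed by edgeR, with 0 at an unadjusted p under 0.05. Of all genes 6.7% rose and 7.91% fell in muscle.

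Of 24 other transcription factors of body position, 9 were tested in muscle and 3 rose, where 6.7% of all genes rose. Among the 3 were PITX1 by 0.66 and EMX2 by 0.55. In the 25 libraries high in SIM1, PITX1 was at 51.2 CPM or more, and EMX2 had a median of 3.14 against 0.728 in the others. These libraries were 4 at 0yr and 21 at 2yr, and the changes of PITX1 and EMX2 without them are not given here. In adipose tissue 3 of 10 tested rose, where 18.7% of all genes rose, among them TBX18 and HAND2 by 0.28 and 0.22. In liver only 5 were tested and 4 rose, where 22.3% of all genes rose. These were HAND2, LHX2, GATA4 and FOXF1, by 0.26, 0.19, 0.15 and 0.4.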

How the data were processed

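Counts, as whole numbers by gene symbol, were deposited by the authors for 588 libraries and again for the 570 kept after quality control. Reads of 50 bases were processed with FastQC, STAR 2.7.7a and featureCounts, per the submitters' processing notes. The sources used here do not give the genome build, annotation or strand setting. Of 34178 symbols, 33824 (99.0%) matched RefSeq Panubis1.0, used for names and overlaps only.

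Members and lists were chosen with earlier results of these data known. Genes named in the text are members, those of the fixed lists, and genes of libraries that stood apart, which were chosen after their values were seen. Animals were put in a batch from the data: the first axis, with 23.2% of the variance, had a gap of 47.2 (the next was 7.07) that left 16 and 83 animals, the numbers the labels give.

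Tests used edgeR 4.0.16 in R 4.3.3 (quasi-likelihood, TMM, 1 common dispersion from 500 genes, filterByExpr with a minimum count of 10, Benjamini-Hochberg adjustment at 0.05). The animal, given by the labels, was the block: the median correlation of an animal's deviations at both times was 0.539, 0.497 and 0.518 in liver, muscle and adipose tissue, against -0.0141, 0.00589 and -0.00791 between animals. The change of a tissue difference used limma 3.58.1 with a prior count of 2. Alternatives used DESeq2 1.42.0, limma-voom, RLE size factors, library totals, other filters, single batches, left-out libraries added, and, chosen after seeing the data, 12 doubtful or 25 SIM1-high libraries left out. Samples of an animal are separate samples by label. The tests were checked on simulated data. Values of a few genes that the counts include are not reported here.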

Additional observations from a re-analysis of the deposited data

Results flagged for a closer look

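For several members the change from 0yr to 2yr differed between tissues of the same animals by limma's test of the difference. HOXB6 stood out on both comparisons with liver, moving toward liver by 1.08 against adipose tissue and by 0.71 against muscle. Toward liver against adipose tissue, HOXB7 moved by 0.7, HOXB8 by 0.68 and HOXA6 by 0.67. Between liver and muscle, HOXB4 moved by 0.64, HOXA7 by 0.53 and HOXD8 by -0.57. In liver, HOXA6, HOXA7, HOXB7, HOXB8 and HOXD8 were too low for a test of the diet. HOXD8 was at -0.26 without the muscle libraries high in SIM1 (limma, adjusted p = 0.186) and at -0.53 in batch 2 alone (limma, adjusted p = 0.0526), and passed in neither. Between adipose tissue and muscle, HOXA2 moved by 0.4, HOXA6 by -0.57, HOXB8 by -0.58 and HOXD1 by -0.66. HOXD1 was at -0.25 without the SIM1-high libraries (limma, adjusted p = 0.241) and at -0.6 in batch 2 (limma, adjusted p = 0.0749). HOXA2 was at 0.34 without the 12 libraries that held markers of another tissue (limma, adjusted p = 0.0592) and at 0.38 in batch 2 (limma, adjusted p = 0.0654).

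Among the 18 libraries that the authors left out, 10 held HOX genes above every kept library of the labelled tissue, where the highest liver values were 10.6 CPM for HOXB6, 3.95 for HOXC10 and 1.29 for HOXD8. The library labelled liver HCHF of animal 17268 held HOXB6 at 174 CPM, HOXC10 at 40.8 and HOXD8 at 79.5. That of animal 14948 held 88.7, 27 and 82.4 CPM, that of animal 14944 56.5, 41.9 and 52, and that of animal 14473 47.4, 29.9 and 49.9. In these 4 libraries hepatocyte markers summed to between 13.4 and 459 CPM and bile duct markers to between 220 and 651. The bile duct markers had medians of 10.7 CPM in kept liver and 114 in kept adipose libraries at 2yr. SIM1 was between 5.48 and 36.2 CPM in the 4 libraries, against at most 0.227 in kept liver libraries at 2yr. What tissue they hold was not tested.

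The library labelled liver HCHF of animal 14642 held HOXC10 at 156 CPM and HOXD8 at 5.47, with 172000 CPM of myocyte markers. In libraries labelled liver LCLF, HOXD8 was at 20.3 CPM in animal 14948, 33.3 in animal 15292 and 15.2 in animal 16400, with myocyte markers at 166000, 97700 and 190000. The library labelled liver HCHF of animal 17916 held HOXB6 at 30.7 CPM and HOXD8 at 6.12, with adipocyte markers at 1610, and the library labelled adipose HCHF of the same animal held hepatocyte markers at 177000. The library labelled muscle LCLF of animal 15545 held HOXB6 at 40.2 CPM, above the highest kept muscle value of 5.43, with adipocyte markers at 2270 and myocyte markers at 57.3.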

How the results depend on the processing

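Over the alternatives, 134 recomputed counts and summaries stayed within 1.5 times or on their side of the threshold, 27 became weaker and 10 stronger, and of the values of single genes 518 stayed, 47 became weaker, 2 stronger and 5 changed sign. Without the animal block (no pairing of samples), 5 members rose and 0 fell in muscle, and 2 rose and 7 fell in adipose tissue, and DESeq2 without it gave the same counts. In muscle 5 rose with limma-voom, with no filter, with a mean of at least 1 CPM, with the left-out libraries added and without the 12 doubtful libraries, and 7 with library totals. In muscle 2 fell with the left-out libraries added, and 0 with limma-voom, library totals, other filters, either batch alone, and without the doubtful or the SIM1-high libraries. In adipose tissue 2 rose with library totals or in batch 2, and 1 with the left-out libraries added. With no filter 10 members fell in liver, all with medians of 0. In batch 1 alone 0 members rose or fell in any tissue and 0 were repeatable. HOXB5 was then at -0.07 for the diet in liver, and r was -0.0103 for HOXB5 in liver, -0.32 for HOXB3 in muscle and -0.0703 for HOXA9 in adipose tissue. With marker scores removed, 12 members were repeatable in muscle. The change of adipose tissue minus muscle passed for 4 members in batch 2 and for 3 without SIM1-high libraries. HOXD8 for adipose tissue minus muscle was 0.12 with library totals. Other than where a setting uses fewer samples, the cause was not tested. In liver only 8 of the 39 members had enough counts for a test.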
